A study of Mus musculus with 9 samples.

Results

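Whole thyroids of mice labelled Smarcb1 KO were compared with whole thyroids of mice labelled Arid2 KO, over all genes of 1 table of raw RNA-seq counts. Every library with these labels was used, 3 per genotype, which makes 6 of the 9 libraries in the table. The other 3, from wild-type thyroid, serve as a reference level and share in the estimate of spread. Tissue and genotype are all that the labels give. Age, sex, strain, the driver of each deletion and whether the gene was removed in thyroid cells or throughout the animal are not given in the sources used here. Nor is it stated that each library is a different mouse, so the tests measure the spread between libraries, part of which may be technical.

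SWI/SNF complexes use ATP to slide or eject nucleosomes and so help set which promoters and enhancers are open. Smarcb1 is a core subunit of both the BAF and the PBAF form of the complex, whereas Arid2 belongs to PBAF alone. The contrast therefore sets loss of a shared core subunit against loss of a subunit of 1 form. In the thyroid, follicular cells take up iodide and attach it to thyroglobulin, and their identity rests on the transcription factors Nkx2-1, Pax8, Foxe1 and Hhex. Parathyroid glands, thymus, trachea, muscle and brown fat lie against the gland and can be dissected with it.

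Of 17079 genes tested with edgeR's quasi-likelihood test, 2779 (16.3%) passed a Benjamini-Hochberg adjusted p of 0.05. In the Smarcb1 KO libraries 1187 of them were higher (6.95% of the genes tested) and 1592 were lower (9.32%) than in the Arid2 KO libraries. The median log2 fold change, Smarcb1 KO minus Arid2 KO, was 0.00299 over all genes, 0.789 over the higher and -0.838 over the lower genes. At least 2-fold differences made up 462 of the higher and 565 of the lower calls. In what follows, "rose" and "fell" describe the Smarcb1 KO relative to the Arid2 KO libraries. Levels are TMM-scaled CPM, in the order of replicates 1, 2 and 3, and every adjusted p is from edgeR.

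The targeted genes did not separate the genotypes. Arid2 was measured at 91.3, 77.2 and 93.8 CPM in Smarcb1 KO and at 94.6, 77.7 and 59.9 CPM in Arid2 KO thyroids (log2 fold change 0.18, SE 0.16, adjusted p = 0.453). Smarcb1 was measured at 47.5, 53.7 and 59.4 CPM in Smarcb1 KO and at 57.3, 59.4 and 64.6 CPM in Arid2 KO thyroids (-0.17, SE 0.11, adjusted p = 0.265). A count over a whole gene also takes in undeleted exons and untargeted cells, so neither label is checked by these values. None of the 14 core and ATPase subunits tested was called (median -0.20). None of the 4 PBAF-specific subunits was called either, and all had positive values: Pbrm1 (0.46, adjusted p = 0.0859), Phf10 (0.32, adjusted p = 0.123), Brd7 (0.13, adjusted p = 0.356) and Arid2. Without the 2 libraries that carry lymphocyte markers, described next, Pbrm1 (0.70, adjusted p = 0.0267) and Phf10 (0.52, adjusted p = 0.0333) were called. The core ATPase Smarca4 was then called lower (-0.60, adjusted p = 0.0274). That fit called 3760 of 17200 genes. After each library's trend over transcript GC content was taken out, the PBAF median was -0.037.

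The libraries also differed in depth and in tissue content. Depth was 38644867 to 41362640 counts for Smarcb1 KO, 61179297 to 89553766 counts for Arid2 KO and 33666251 to 34045321 counts for wild type, so depth and genotype cannot be told apart. With all libraries thinned to the smallest total, 2651 genes were called, 2505 of them among the 2779. Tg was the most abundant gene everywhere, at 24.1% to 30.8% of the counts. Rag1, Rag2 and Dntt, which mark developing lymphocytes, reached 502, 26.8 and 153 CPM in Arid2 KO replicate 1 and 52.6, 3.55 and 28 CPM in Smarcb1 KO replicate 2. In the remaining 4 knockout libraries they did not exceed 0.145 CPM. Omission of those 2 libraries gave 3760 calls, 2284 of them shared. Xist was at 809 CPM in Smarcb1 KO replicate 3, which had no count of the Y-linked Ddx3y, and no other library exceeded 2.6 CPM. Ddx3y was at 43.4 to 109.6 CPM in the other libraries, so the genotypes were not matched on these sex-linked genes.

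Among the clearest falls were Scgb3a1, Cadm3, Darc, Scand1 and Srd5a1, and among the steadiest rises Asns. The promoters of these 6 genes are printed so that their base composition and the motif matches described later can be read off. Each line gives the 250 bases before the start of the gene, 5′ to 3′ on its own strand, from RefSeq on build GRCm38.p6. Capitals mark matches, on either strand, to any of 4 motifs: the GC box GGGCGG, the amino acid response core TGATGNAA, the Nkx2-1 core CAAGTG and the AP-1 site TGANTCA. The windows are chr11:49663345-49663594 (plus strand) for Scgb3a1, chr1:173367696-173367945 (minus strand) for Cadm3, chr1:173333504-173333753 (minus strand) for Darc, chr2:156312705-156312954 (minus strand) for Scand1, chr13:69611464-69611713 (minus strand) for Srd5a1 and chr6:7693210-7693459 (minus strand) for Asns.
Scgb3a1: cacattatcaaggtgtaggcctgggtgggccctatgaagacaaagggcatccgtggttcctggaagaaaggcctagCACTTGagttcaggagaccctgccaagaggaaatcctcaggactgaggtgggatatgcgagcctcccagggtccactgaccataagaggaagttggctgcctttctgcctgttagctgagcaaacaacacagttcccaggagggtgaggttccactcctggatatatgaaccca
Cadm3: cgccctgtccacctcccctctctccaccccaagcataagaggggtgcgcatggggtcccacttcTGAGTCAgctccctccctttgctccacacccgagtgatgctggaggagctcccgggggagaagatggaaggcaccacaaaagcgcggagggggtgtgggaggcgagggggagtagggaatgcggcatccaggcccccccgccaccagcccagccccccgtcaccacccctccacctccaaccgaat
Darc: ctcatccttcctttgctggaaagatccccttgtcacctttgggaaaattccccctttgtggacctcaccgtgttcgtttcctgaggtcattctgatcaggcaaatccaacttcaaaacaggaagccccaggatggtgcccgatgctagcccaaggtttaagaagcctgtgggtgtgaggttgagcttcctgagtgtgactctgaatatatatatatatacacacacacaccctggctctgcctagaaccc
Scand1: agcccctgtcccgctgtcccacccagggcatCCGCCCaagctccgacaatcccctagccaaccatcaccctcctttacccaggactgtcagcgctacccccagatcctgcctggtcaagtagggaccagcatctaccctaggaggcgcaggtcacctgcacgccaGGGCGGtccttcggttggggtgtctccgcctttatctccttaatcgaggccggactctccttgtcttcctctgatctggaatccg
Srd5a1: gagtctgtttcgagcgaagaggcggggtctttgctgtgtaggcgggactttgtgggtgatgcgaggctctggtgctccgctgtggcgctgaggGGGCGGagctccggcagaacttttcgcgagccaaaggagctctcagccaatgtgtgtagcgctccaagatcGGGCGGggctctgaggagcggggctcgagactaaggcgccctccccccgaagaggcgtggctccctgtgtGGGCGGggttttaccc
Asns: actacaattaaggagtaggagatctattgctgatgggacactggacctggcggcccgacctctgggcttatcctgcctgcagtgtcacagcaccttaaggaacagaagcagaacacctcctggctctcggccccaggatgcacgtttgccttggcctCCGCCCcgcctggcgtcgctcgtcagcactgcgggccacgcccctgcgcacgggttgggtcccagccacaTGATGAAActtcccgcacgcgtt

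Cadm3, a cell adhesion molecule of the nectin-like family, fell 8.18-fold. Its level was 21.8, 15.1 and 21.8 CPM in Smarcb1 KO, 132, 147 and 201 CPM in Arid2 KO and 24.3, 27.7 and 26.3 CPM in wild-type thyroids (log2 fold change -3.03, SE 0.20, adjusted p = 0.000621). Smarcb1 KO libraries lay just under wild type, and the Arid2 KO libraries stood apart from both. The neighbouring Darc, an atypical chemokine receptor, had the same pattern, with 3.03, 3.76 and 3.52 CPM in Smarcb1 KO, 16.6, 22 and 33.1 CPM in Arid2 KO and 3.52, 4.33 and 5.07 CPM in wild type (-2.8, SE 0.27, adjusted p = 0.00198). The annotated spans of Cadm3 and Darc overlap, so reads may be shared between them.

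Secretory genes of the airway fell with wild type on the Smarcb1 KO side. Scgb3a1, a secretoglobin of airway secretory cells, had 0.382, 0.769 and 0.271 CPM in Smarcb1 KO, 15.3, 13.1 and 23 CPM in Arid2 KO and 0.334, 0.285 and 0.534 CPM in wild type (log2 fold change -5.16, SE 0.44, adjusted p = 0.00115). In raw counts these were 15, 34 and 10 against 1394, 840 and 1431. Of 9 airway epithelium markers tested, 4 fell and none rose, where 9.32% of all genes tested fell and 6.95% rose. The median log2 fold change of the markers was -3.11. Without the lymphocyte-marked libraries 7 fell (median -4.54), where 2003 of 17200 genes tested fell. With the parathyroid covariate 2 fell (median -2.18), where 110 of 17079 genes did. With 1 library left out the median ran from -4.48 to -2.25. Besides Scgb3a1 the 4 were the airway defence protein Bpifb1 (-5.4, adjusted p = 0.00435), the gel-forming mucin Muc5b (-3.17, adjusted p = 0.0135) and the surfactant protein Sftpb (-2.99, adjusted p = 0.0274). Bpifb1 had only 1, 3 and 0 counts in Smarcb1 KO, against 83, 127 and 98 in Arid2 KO. Sftpd, a second surfactant protein outside that list, fell from 2.76, 10.4 and 5.19 CPM in Arid2 KO to 0.611, 0.815 and 0.406 CPM in Smarcb1 KO (-3.31, SE 0.51, adjusted p = 0.00783), with wild type lower still at 0.091, 0.0569 and 0.0297 CPM.

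Of the 9, 8 had negative values, and Bpifa1 did not. Bpifa1 varied from 3.89 to 375 CPM among Smarcb1 KO and from 22.4 to 143 CPM among Arid2 KO libraries. The summed level of all 10 listed markers overlapped as well, at 6.41 to 393 CPM in Smarcb1 KO, 72.1 to 247 CPM in Arid2 KO and 76.7 to 152 CPM in wild type. Muc5b was no longer called when Arid2 KO replicate 3 was omitted (adjusted p = 0.0596). Sftpb was no longer called when Arid2 KO replicate 2 or 3 or Smarcb1 KO replicate 1 or 3 was omitted (adjusted p 0.0771 to 0.0988). The part of dissected airway tissue in these differences was not tested.

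For another set of falls the wild-type level overlapped or exceeded that of Arid2 KO. Srd5a1, a steroid reductase, had 2.06, 2.15 and 2.11 CPM in Smarcb1 KO, 24.9, 15.3 and 24.9 CPM in Arid2 KO and 12.4, 18 and 13.5 CPM in wild type (log2 fold change -3.36, SE 0.24, adjusted p = 0.000621). The Smarcb1 KO libraries hardly varied, and wild type overlapped Arid2 KO. Scand1, a small SCAN-domain protein, had 0.483, 0.747 and 0.379 CPM in Smarcb1 KO, 9.12, 8.04 and 12 CPM in Arid2 KO and 15.1, 18.2 and 15.9 CPM in wild type (-4.16, SE 0.28, adjusted p = 0.000621). With the GC trend taken out its fall was -2.8, adjusted p = 0.00109, more than 1.5 times smaller as a fold. Mrps34, a protein of the small subunit of mitochondrial ribosomes, had 0.382, 0.769 and 0.433 CPM in Smarcb1 KO and 4.13, 4.63 and 5 CPM in Arid2 KO, where it overlapped wild type at 4.34, 5.83 and 5.81 CPM (-3.1, SE 0.30, adjusted p = 0.00198).

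Several secreted peptides were among the largest falls. Nrtn, the neuronal growth factor neurturin, had 0.433, 0.317 and 0.135 CPM in Smarcb1 KO, 3.95, 3.41 and 3.68 CPM in Arid2 KO and 5.37, 8.25 and 6.2 CPM in wild type (-3.62, SE 0.37, adjusted p = 0.00236). The value for Nrtn was -1.79, adjusted p = 0.0268 with the GC trend taken out. Adm2, a hormone related to adrenomedullin, had 0.204, 0.43 and 0.595 CPM against 3.88, 3.79 and 8.5 CPM in Arid2 KO (-3.71, SE 0.48, adjusted p = 0.00502). Pcsk1n, which inhibits a prohormone convertase, had 0.331, 0.769 and 0.541 CPM against 3.07, 3.71 and 6.73 CPM (-3.03, SE 0.45, adjusted p = 0.00706). For Adm2 wild type lay between the genotypes, and for Nrtn it lay above both.

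Some large falls lost their calls on omission of a library. Amdhd1, an enzyme of histidine breakdown, had 0.229, 0.543 and 0.433 CPM in Smarcb1 KO and 17.3, 9.84 and 12.1 CPM in Arid2 KO, and ranged from 1.12 to 27.9 CPM in wild type (-5.01, SE 0.98, adjusted p = 0.016). Its call was lost without Arid2 KO replicate 3 or Smarcb1 KO replicate 1 or 3 (adjusted p 0.0559 to 0.063), at log2 fold changes of -5.07 to -4.73. Vstm2b (-3.89, adjusted p = 0.0174) lost its call without Arid2 KO replicate 3 (0.0681) or Smarcb1 KO replicate 1 (0.0694), at -3.65 to -3.42. The alpha globin Hba-a1 (-3.19, adjusted p = 0.0228) lost its call without Arid2 KO replicate 2 or 3 or Smarcb1 KO replicate 1 or 3 (0.0624 to 0.0868), at -3.09 to -2.92. Hba-a1 has a near-identical copy and is uncertain, and the other 6 erythroid markers tested were not called.

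Among genes at higher levels, Moxd1, Sod3, Napsa and Dnase1l2 fell, and each was called whichever library was omitted. Moxd1, a monooxygenase, went from 63.4, 80 and 124 CPM in Arid2 KO to 9.31, 11.1 and 19.3 CPM in Smarcb1 KO (-2.76, SE 0.38, adjusted p = 0.00562). Sod3, the extracellular superoxide dismutase, went from 151, 140.2 and 244 to 30.3, 41.1 and 48.1 CPM (-2.16, SE 0.36, adjusted p = 0.0095), with wild type at 63.5, 27.5 and 66.7 CPM. Napsa, an aspartic protease, went from 279, 261 and 376 to 42, 105 and 79.7 CPM (-2.01, SE 0.31, adjusted p = 0.0075). The DNase gene Dnase1l2 went from 73.9, 70 and 75.3 to 15.7, 20.1 and 11.5 CPM (-2.21, SE 0.31, adjusted p = 0.00629). With the parathyroid covariate Moxd1 was called (-2.27, adjusted p = 0.0493). Sod3 (-1.54, adjusted p = 0.061), Napsa (-1.91, adjusted p = 0.063) and Dnase1l2 (-2.07, adjusted p = 0.0535) were not called in that fit. Lack of overlap between the genotypes was a condition of their selection.

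**Figure D1:**
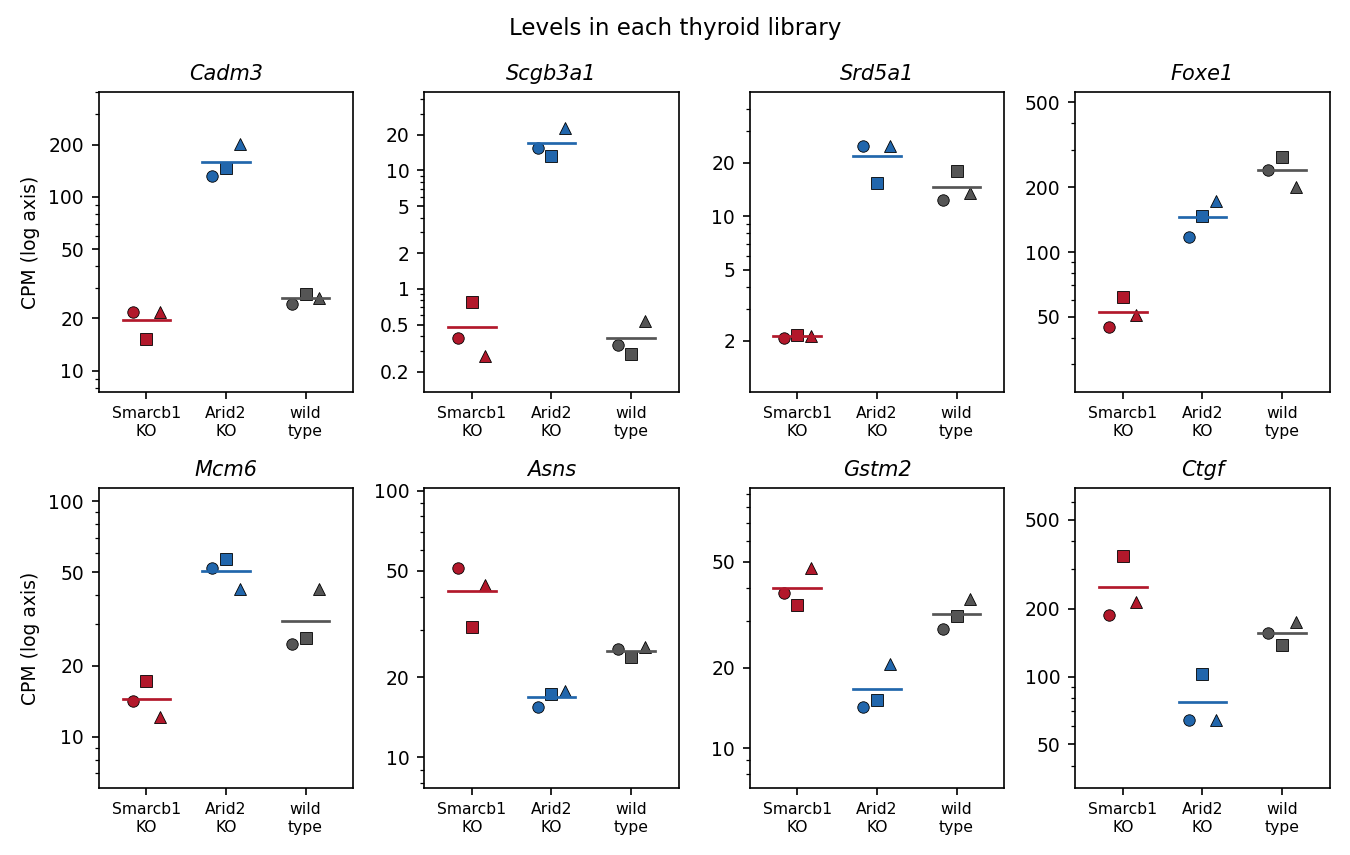
Level of 8 genes in each library, as CPM on a log axis whose range differs by panel; circles, squares and triangles are replicates 1, 2 and 3 and lines are group means. Cadm3 and Scgb3a1 are high in Arid2 KO alone, Srd5a1, Foxe1 and Mcm6 are lowest in Smarcb1 KO, and Asns, Gstm2 and Ctgf are lowest in Arid2 KO.

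Among the most uniform rises, Gstm2, a glutathione transferase, had 38.3, 34.5 and 47.2 CPM in Smarcb1 KO, 14.2, 15.2 and 20.6 CPM in Arid2 KO and 28.1, 31.2 and 36.2 CPM in wild type (log2 fold change 1.26, SE 0.18, adjusted p = 0.00629). Spon2, a secreted matrix protein, had 4.1, 3.51 and 3.71 CPM, then 0.924, 0.501 and 0.771 CPM, then 2.82, 2.82 and 2.76 CPM in the same order (2.36, SE 0.25, adjusted p = 0.00271). For both, the wild-type mean lay between the genotypes. Eya1, a transcriptional coactivator in the development of pharyngeal organs, had 23.4, 21.6 and 23.6 CPM against 8.67, 7.65 and 6.2 CPM, and its wild-type level of 9.22, 11.7 and 7.18 CPM was close to that of Arid2 KO (1.61, SE 0.20, adjusted p = 0.00436). Eya1 was highest among wild type in replicate 2 and lowest among Arid2 KO in replicate 3. Parathyroid markers, described later, were likewise highest and lowest there. Gstm2, Spon2 and Eya1, together with Darc, Rassf4, Tacc2, Pde4c, Slc12a5, Gdpd3, Sardh and Tst, were named after their values were seen, because they were called in each of the 14 fits described next.

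Fewer genes were called in fits that took account of transcript GC content or of the level of parathyroid markers. Taking out each library's GC trend kept 418 of the 1187 rises and 578 of the 1592 falls. A covariate made of the parathyroid markers Pth, Gcm2 and Casr kept 35 and 110, although the median log2 fold change of the original calls moved only to 0.682 and -0.777. The median SE went from 0.186 to 0.227 for the rises and from 0.179 to 0.219 for the falls. This covariate was 8.51 to 9.2 in Smarcb1 KO and 1.23 to 6.6 in Arid2 KO libraries. It therefore cannot be fully told apart from genotype. Omitting each library in turn left 89 rises and 280 falls that were called all 9 times. In all 14 fits (the original, those 9, the GC trend taken out, the covariate, both of these, and omission of the lymphocyte-marked libraries) 25 rises and 49 falls were called. The rises include Asns, Cpeb2, Eya1, Gstm2, Rassf4, Spon2 and Tacc2. The falls include Bpifb1, Cadm3, Darc, Gdpd3, Mcm6, Mrps34, Pde4c, Sardh, Scand1, Scgb3a1, Slc12a5, Srd5a1, Tst and Uqcrq.

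Wild type sat differently among these steady falls. Pde4c, a phosphodiesterase of cAMP, had 1.22, 2.83 and 2.63 CPM in Smarcb1 KO, 10.5, 11.5 and 16 CPM in Arid2 KO and 3.37, 2.48 and 3.14 CPM in wild type (-2.51, SE 0.33, adjusted p = 0.00503). Slc12a5, a potassium and chloride cotransporter, had 4.55, 6.74 and 5.2, then 17.5, 23.3 and 28.1, then 8.55, 8.77 and 8.9 CPM in the same order (-2.06, SE 0.21, adjusted p = 0.00236). For these the Arid2 KO libraries were the distant ones. Gdpd3, a phosphodiesterase of lipids, had 1.27, 1.45 and 1.41 CPM in Smarcb1 KO, 9.96, 8.23 and 9.89 CPM in Arid2 KO and 13.4, 8.4 and 11.9 CPM in wild type (-2.76, SE 0.21, adjusted p = 0.000845), so here Smarcb1 KO was distant. Over the 1591 falls whose knockout libraries did not overlap, the wild-type mean lay between the genotype means for 1062, above both for 455 and below both for 74. Over the 1175 such rises it lay between for 999, above both for 67 and below both for 109.

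Transcript GC content went with the direction of change. Of 959 genes under 40% GC, 176 rose and 5 fell, with a median log2 fold change of 0.421. Of 680 genes over 60% GC, 3 rose and 304 (44.7%) fell, with a median of -0.769. The Smarcb1 KO libraries differed among themselves in this, with median log2 deviations of -0.649, -0.168 and -0.365 over the GC-rich genes, against 0.101, 0.145 and 0.313 for Arid2 KO and 0.166 to 0.237 for wild type. With the trend taken out, the medians were -0.0251 under 40% and -0.0676 over 60% GC, with 24 rises and 25 falls in the first class and 51 and 64 in the second. Over all classes 1294 genes were then called (574 rises, 720 falls), 997 of which were among the 2779. The sign changed for 64 of the 2779. The cause of the trend was not tested.

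**Figure D2:**
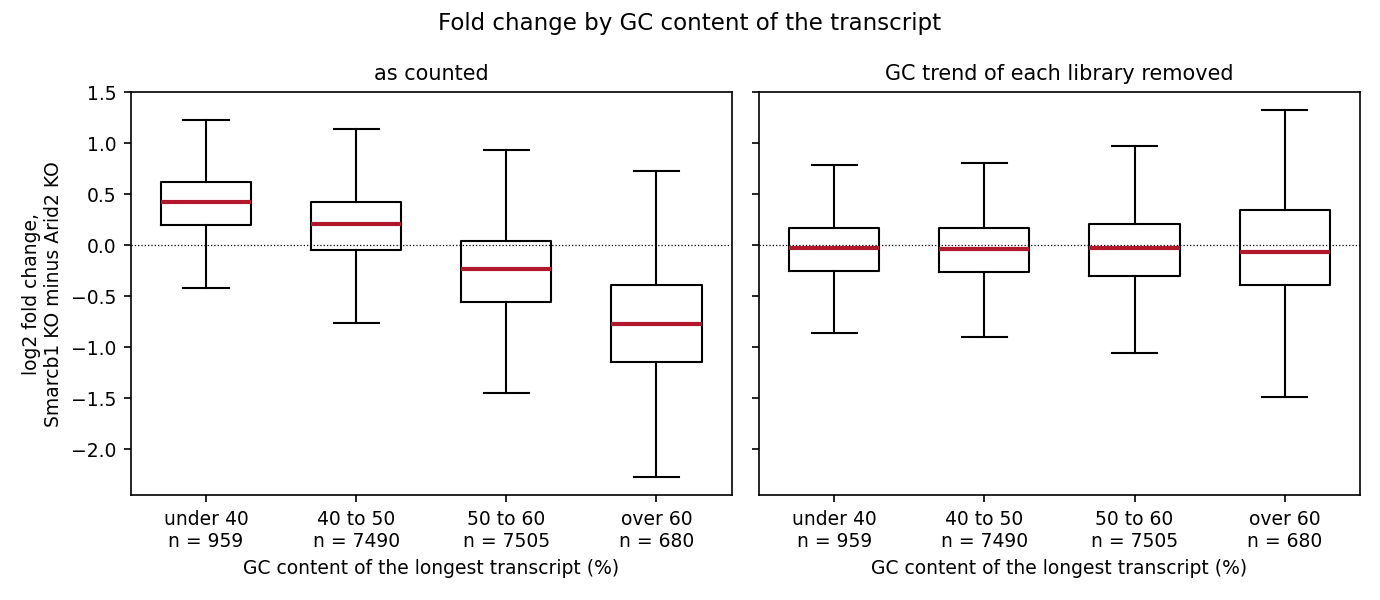
Log2 fold change (Smarcb1 KO minus Arid2 KO) by GC content of the longest transcript, before (left) and after (right) each library's GC trend was taken out, for all tested genes with a known GC content. Boxes are quartiles with the median as a line, whiskers reach the farthest gene within 1.5 box lengths and genes beyond are not drawn; on the left the median runs from 0.421 under 40% GC to -0.769 over 60% GC, and on the right it lies near 0 in each class.

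The promoter windows gave a smaller difference. RefSeq supplied one for 865 of the 1187 rises, 1235 of the 1592 falls and 12527 of the 17079 genes tested. The GC box GGGCGG was present in 56% of the windows of rises, 65.1% of those of falls, 55.8% of those of tested genes and 32.7% of all 32851 windows in the table. The printed windows of Scand1 and Srd5a1 hold 2 and 3 GC boxes. The Nkx2-1 core CAAGTG was in 9.83%, 10.7%, 9.76% and 11.6% of the same 4 sets, and the AP-1 site TGANTCA in 5.09%, 4.45%, 4.81% and 6.75%. The window of Scgb3a1 holds 1 Nkx2-1 core and that of Cadm3 holds 1 AP-1 site. A match is a run of letters and not a known binding site.

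Parathyroid RNA was high in all Smarcb1 KO libraries. Pth, the parathyroid hormone gene, had 16751, 5892 and 9307 CPM in Smarcb1 KO, 1532, 1436 and 0.129 CPM in Arid2 KO and 1199, 4172 and 0.0297 CPM in wild type. Gcm2, the transcription factor that specifies parathyroid cells, had 68.3, 55.2 and 51.9 CPM in Smarcb1 KO, 15.9, 11.2 and 0 CPM in Arid2 KO and 7.89, 40.7 and 0 CPM in wild type. Casr, the calcium-sensing receptor, had 172, 144 and 203 CPM, then 33.9, 36.3 and 10.5 CPM, then 28.7, 107 and 8.13 CPM. The knockout genotypes did not overlap, yet none of these genes was called: Pth (3.43, adjusted p = 0.332), Gcm2 (2.69, adjusted p = 0.256), Casr (2.69, adjusted p = 0.0511). Such a lack of overlap was common, being found for 6620 of the 17079 genes tested. Summed, the markers came to 6092 to 16992 CPM in Smarcb1 KO, 10.6 to 1581 CPM in Arid2 KO and 8.16 to 4319.7 CPM in wild type.

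Most of the largest rises varied with these markers among the wild-type and among the Arid2 KO libraries. Of the 12 largest, 11 were highest among wild-type libraries in replicate 2, where the markers were highest, and 10 were lowest among Arid2 KO libraries in replicate 3, where they were lowest. The same held for 45.9% and 66.6% of all 1187 rises and for 31.9% and 36.6% of all genes tested. Among the 1592 falls the shares were 37.7% and 13.3%, and among the 12 largest falls 7 and 0 genes did so. Tspan6, a tetraspanin, had 570.2, 226 and 359.8 CPM in Smarcb1 KO, 78.1, 78.5 and 37 CPM in Arid2 KO and 71.4, 179 and 47 CPM in wild type (log2 fold change 2.58, SE 0.55, adjusted p = 0.0192). Vdr, the vitamin D receptor, had 136, 110.5 and 164 CPM, then 37, 40.5 and 29 CPM, then 41.2, 80.4 and 24.8 CPM (1.95, SE 0.37, adjusted p = 0.0148). Vdr is also known from parathyroid cells. In bulk tissue, more cells of a type and more RNA per cell cannot be told apart.

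Channels, receptors and ligands made up several of these rises. Kcnj2, an inward rectifier potassium channel, had 63, 40 and 51.9 CPM against 7.76, 8.73 and 6.39 CPM (2.76, SE 0.52, adjusted p = 0.014). The water channel Aqp4 had 28.8, 18.5 and 18.1 CPM against 4.25, 3.4 and 2.51 CPM (2.68, SE 0.60, adjusted p = 0.0226). Adora3, an adenosine receptor, had 7.79, 3.73 and 5.44 CPM against 1.09, 0.782 and 0.482 CPM (2.84, SE 0.51, adjusted p = 0.0119). The ligands Wnt7b (2.68) and Edn3 (2.56), the centriole protein Ccdc67 (2.64), the protein kinase A inhibitor Pkib (2.6), Lrrc18 (2.52) and the transcription factor Dmrt2 (2.45) rose by similar amounts. With the parathyroid covariate none of Tspan6, Kcnj2, Aqp4, Adora3, Wnt7b, Edn3, Ccdc67, Pkib, Lrrc18, Dmrt2 and Vdr was called. Their values were then 1.22 (Wnt7b) to 1.97 (Adora3), with adjusted p from 0.0663 (Adora3) to 0.256 (Wnt7b). The part of parathyroid tissue in these rises was not tested. Over all 17079 genes tested, the fit with the covariate called 35 higher.

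Many of these calls were lost on omission of a library. Over the fits in which the call was lost, the log2 fold change was 2.57 for Adora3, 2.63 for Kcnj2, 2.43 to 2.8 for Aqp4 and 2.18 to 2.74 for Tspan6. Adora3 (0.0594), Kcnj2 (0.0691), Vdr (0.0716) and the vesicle docking protein Sytl4 (2.31 in the full fit, 0.0702) were not called without Arid2 KO replicate 3, with the adjusted p in parentheses. Tspan6, Aqp4, Pkib, Lrrc18 and Dmrt2 were not called without any 1 of Arid2 KO replicates 2 and 3 and Smarcb1 KO replicates 1 and 3 (adjusted p 0.0504 to 0.096). Ccdc67 and Edn3 were not called without Arid2 KO replicate 2 or 3 or Smarcb1 KO replicate 1 (0.0503 to 0.0895). Wnt7b and the aminopeptidase Anpep (2.21 in the full fit) were not called without any 1 of the Arid2 KO libraries or Smarcb1 KO replicates 1 and 3, nor was Wnt7b without wild-type replicate 1 (0.0524 to 0.136). Cpeb2, a regulator of mRNA polyadenylation, was called throughout, at 86.5, 57.8 and 76.6 CPM against 24.7, 22.2 and 13.2 CPM (1.88, SE 0.28, adjusted p = 0.00706). Its wild-type level was 23.9, 38.6 and 24.4 CPM, so it too was highest there in replicate 2 and lowest among Arid2 KO in replicate 3. With the parathyroid covariate its value was 1.46 (adjusted p = 0.0423).

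**Figure D3:**
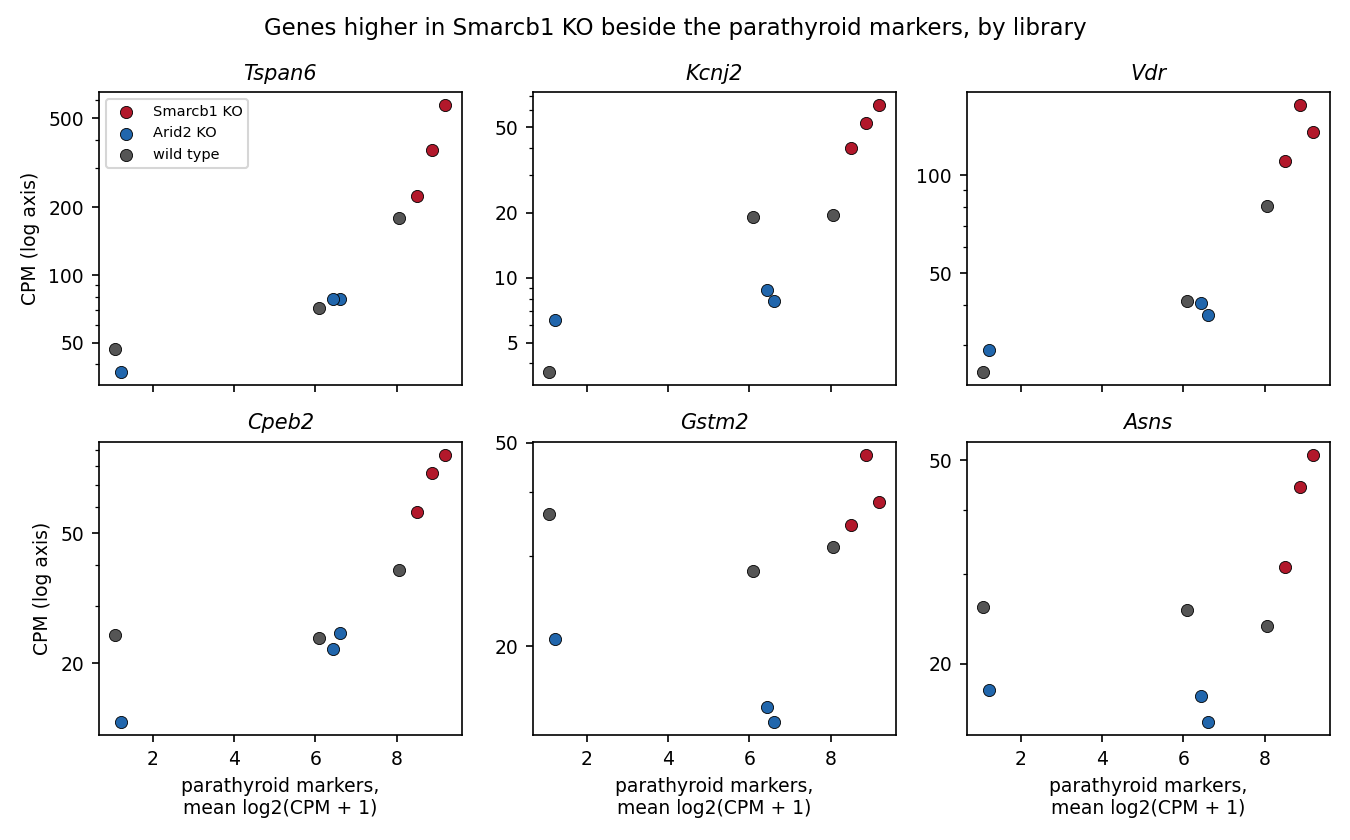
CPM (log axis, ranges differ) of 6 genes that rose, against the parathyroid marker level, taken as the mean of log2(CPM + 1) over Casr, Gcm2 and Pth, 1 point per library, coloured by genotype. Among wild-type libraries Tspan6 and Vdr climb with the markers (47 to 179 and 24.8 to 80.4 CPM), whereas Asns (23.8 to 25.9 CPM) and Gstm2 (28.1 to 36.2 CPM) vary little.

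A pair of rises had few or no reads in Arid2 KO thyroids. Muc15, a membrane mucin, had 283, 178 and 468 counts in Smarcb1 KO, 0 counts in every Arid2 KO library and 14, 244 and 2 counts in wild type. Against a floor of 3 counts over the Arid2 KO group, Muc15 was at least 558-fold higher (adjusted p = 0.025). Its wild-type reads lay mostly in replicate 2, where parathyroid markers were highest. The call of Muc15 was lost without Arid2 KO replicate 2 or 3 or Smarcb1 KO replicate 1 or 3 (adjusted p 0.0629 to 0.0825). Psca, a lipid-anchored surface protein, had 43, 502 and 73 counts in Smarcb1 KO, 5, 1 and 1 in Arid2 KO and 73, 44 and 43 in wild type (log2 fold change 7.16, SE 1.07, adjusted p = 0.00726).

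Foxe1 was the only one of the 5 thyroid transcription factors listed that was called. It had 44.7, 61.8 and 50.9 CPM in Smarcb1 KO, 118, 147 and 174 CPM in Arid2 KO and 241, 278 and 201 CPM in wild type (log2 fold change -1.48, SE 0.19, adjusted p = 0.0047). Both knockout genotypes lay under every wild-type library, Smarcb1 KO lowest. Foxe1 was called whichever library was omitted and with the parathyroid covariate (-1.48, adjusted p = 0.0444), and its value was -0.64, adjusted p = 0.0151 with the GC trend taken out. With both adjustments it was not called (-0.70, adjusted p = 0.0678). Nkx2-1 (-0.10, adjusted p = 0.67), Pax8 (-0.29, adjusted p = 0.187), Hhex (0.091, adjusted p = 0.638) and Glis3 (-0.19, adjusted p = 0.548) did not pass.

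Of 23 genes of thyroid hormone production tested, 3 rose and 1 fell, a share near the 16.3% called over all genes, with a median log2 fold change of 0.19. Duoxa1, which matures the peroxide generator Duox1, had 8.96, 7.58 and 18.6 CPM in Smarcb1 KO, 2.39, 2.94 and 3.57 CPM in Arid2 KO and 11.7, 19.4 and 22.1 CPM in wild type (1.98, SE 0.37, adjusted p = 0.0141). Arid2 KO libraries were thus the low ones for Duoxa1. Slc7a8, an amino acid and thyroid hormone transporter (1.75, adjusted p = 0.0149), and Lrp2, the endocytic receptor megalin (0.94, adjusted p = 0.013), rose too.

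None of these 3 rises was called in every fit. Duoxa1 lost its call without Arid2 KO replicate 2 (0.0522) or 3 (0.0543), and Slc7a8 (0.0702) and Lrp2 (0.0635) without Arid2 KO replicate 3. Slc5a5, the iodide importer, had 386, 462 and 113 CPM in Smarcb1 KO, 105, 143 and 134 CPM in Arid2 KO and 389, 533 and 478 CPM in wild type, with Smarcb1 KO replicate 3 inside the Arid2 KO range (1.33, adjusted p = 0.0589). It was called with the GC trend taken out (1.81, adjusted p = 0.0412). Tshr, the thyrotropin receptor, had the same replicate inside that range, at 121, 91.9 and 52.7 CPM against 48.8, 48.6 and 54.5 CPM (0.81, adjusted p = 0.0528). Smarcb1 KO replicate 3 is also the library with high Xist and no Ddx3y count, and the part of sex in these values was not tested. Tg (-0.078, adjusted p = 0.866), Iyd (0.36, adjusted p = 0.111), Duox2 (-0.31, adjusted p = 0.237), Duoxa2 (-0.52, adjusted p = 0.0765) and Dio1 (-0.37, adjusted p = 0.31) did not pass.

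Of 30 cell cycle genes tested, 11 fell, none rose and 19 did not pass, where 9.32% of all genes tested fell. Negative values were found for 29, and the median log2 fold change was -1.17. Mcm6, of the replicative helicase, had 14.1, 17.3 and 12.2 CPM in Smarcb1 KO, 52.3, 56.8 and 42.5 CPM in Arid2 KO and 24.8, 26.3 and 42.3 CPM in wild type (-1.8, SE 0.23, adjusted p = 0.0049). In the same order, the mitotic cyclin Ccnb2 had 1.93, 3.39 and 1.62, then 13, 4.59 and 8.18, then 2.82, 2.5 and 3.23 CPM (-1.89, adjusted p = 0.0198). For Ccnb2 wild type was near Smarcb1 KO, and the highest library was Arid2 KO replicate 1, which carries lymphocyte markers. Cdc20, an activator of the anaphase-promoting complex, fell likewise (-1.57, adjusted p = 0.0177).

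The summed level of the 30 cell cycle genes was 240.5 to 345 CPM in Smarcb1 KO, 389 to 796 CPM in Arid2 KO and 233 to 319 CPM in wild type. Without the lymphocyte-marked libraries, 11 fell and the median was -0.79, where 2003 of 17200 genes tested fell. With the GC trend taken out 8 fell (median -1.33), where 720 of all 17079 genes tested did. With the parathyroid covariate only Mcm6 fell (median -1.06), where 110 of all 17079 genes did. Ccnb2 and Cdc20 were not called without Arid2 KO replicate 3 or Smarcb1 KO replicate 1 or 3 (adjusted p 0.0604 to 0.0717). Of 10 thymocyte markers tested none was called, and the median of -1.97 became 0.065, with 1 called lower, once those libraries were omitted. Their summed level was 25.8 to 319 CPM in Smarcb1 KO and 31.6 to 1683 CPM in Arid2 KO. The part of thymus tissue in the cell cycle result was not tested beyond that omission.

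Genes of energy production and translation fell in part. Of 30 oxidative phosphorylation genes 6 fell and none rose, with a median log2 fold change of -0.35. Over all genes tested, 9.32% fell and 6.95% rose. Uqcrq, of complex III, had 28.7, 42.3 and 30.7 CPM in Smarcb1 KO, 80.5, 84.7 and 125 CPM in Arid2 KO and 83.3, 82.1 and 129 CPM in wild type (-1.51, SE 0.25, adjusted p = 0.00934). Ndufs7, of complex I, had 18.6, 32.4 and 23.7 CPM against 57.4, 59 and 76.8 CPM (-1.37, SE 0.21, adjusted p = 0.00733). With the GC trend taken out 5 fell, where 720 of all 17079 genes tested did. With the parathyroid covariate only Uqcrq fell (list median -0.055), where 110 of all 17079 genes did. Brown fat and skeletal muscle, both rich in mitochondria, had no called marker among 8 and 13 tested, with medians of -1.18 and -0.98. Their summed levels were 151 to 347 CPM in Smarcb1 KO against 472 to 916 CPM in Arid2 KO for brown fat, and 132 to 1521 against 564 to 2362 CPM for muscle. The part of these tissues was not tested.

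Of 22 cytoplasmic ribosomal protein genes 7 fell and none rose (median -0.19), where 9.32% of all genes tested fell and 6.95% rose. Rplp1, of the ribosomal stalk, had 116, 137 and 90.9 CPM in Smarcb1 KO against 269.7, 280.4 and 317 CPM in Arid2 KO (-1.33, SE 0.19, adjusted p = 0.00644). Its stalk partner Rplp2 fell as well (-1.04, adjusted p = 0.00998), but not without Arid2 KO replicate 3 (0.0503). With the GC trend taken out 4 of the list fell, and with the covariate none did, where 720 and 110 of all 17079 genes fell. Of 17 genes of glycolysis and hypoxia 4 fell and none rose (median -0.53): Pfkl (-1.02, adjusted p = 0.0362), Pkm2 (-0.69, adjusted p = 0.0238), Gapdh (-0.65, adjusted p = 0.0349) and Bnip3 (-0.63, adjusted p = 0.0455). None of these 4 was called without any 1 of Arid2 KO replicates 2 and 3 and Smarcb1 KO replicates 1 and 3 (adjusted p 0.0598 to 0.131). Further omissions lost more: of the 9 such fits Bnip3 was called in only 1 and Gapdh in 3. Pfkl was also lost without wild-type replicate 1 (0.0501). Bnip3 alone fell with the GC trend taken out, where 720 of all 17079 genes tested did.

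Targets of Atf4, the factor of the amino acid response, moved both ways. Of 13 tested, 2 rose and 4 fell (median 0.056), where 6.95% of all genes tested rose and 9.32% fell. With the GC trend taken out 3 rose and 1 fell, where 574 and 720 of all 17079 genes tested did. Asns, asparagine synthetase, had 51.1, 30.9 and 44.4 CPM in Smarcb1 KO, 15.4, 17.3 and 17.8 CPM in Arid2 KO and 25.4, 23.8 and 25.9 CPM in wild type (log2 fold change 1.33, SE 0.17, adjusted p = 0.005). The 3 groups did not overlap. Its printed promoter holds 1 amino acid response core TGATGNAA, as do 2% of the windows of tested genes and 3.45% of all windows. Psat1, of serine synthesis, rose (0.81, adjusted p = 0.011), whereas Chac1, which degrades glutathione (-2.04, adjusted p = 0.02), and Ddit4, an inhibitor of mTORC1 (-1.24, adjusted p = 0.0211), fell. Psat1 (0.0543), Chac1 (0.084) and Ddit4 (0.0634) were not called without Arid2 KO replicate 3. Chac1 was also lost without Arid2 KO replicate 2 (0.0558) or Smarcb1 KO replicate 3 (0.0676), and Ddit4 without Smarcb1 KO replicate 1 (0.076) or 3 (0.07). Ddit4 was not called with the GC trend taken out either (-0.84, adjusted p = 0.0969).

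Of 16 immediate early genes 3 fell and none rose (median -0.47), where 9.32% of all genes tested fell and 6.95% rose. Junb had 3.15, 7.74 and 2.98 CPM in Smarcb1 KO, 16.4, 17.4 and 16.7 CPM in Arid2 KO and 21.9, 22.4 and 18.8 CPM in wild type (-1.86, SE 0.33, adjusted p = 0.0119), and was not called without Arid2 KO replicate 3 (0.0522). It remained lower with the GC trend taken out (-1.11, adjusted p = 0.0361). Jund (-0.84, adjusted p = 0.00543) changed sign in that fit (0.41, adjusted p = 0.175), and Ier2 (-0.85, adjusted p = 0.0186) was not called (-0.20, adjusted p = 0.387). Ier2 was also lost without Arid2 KO replicate 3 or Smarcb1 KO replicate 1 or 3 (0.0512 to 0.0747).

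Of 19 genes of epithelial junctions 1 rose and 3 fell (median 0.022), where 6.95% and 9.32% of all genes tested did. Cldn3, a tight junction claudin, had 19.8, 42.1 and 34 CPM in Smarcb1 KO, 95.7, 119.9 and 103 CPM in Arid2 KO and 111, 111 and 107 CPM in wild type (-1.73, SE 0.24, adjusted p = 0.00562). It was called whichever library was omitted, and its value was -0.95, adjusted p = 0.0145 with the GC trend taken out. Cdh16, a cadherin of kidney and thyroid, had 474, 378 and 495 CPM, then 774, 849 and 940 CPM, then 652, 611 and 576 CPM (-0.93, SE 0.14, adjusted p = 0.00726), and was not called in that fit (-0.59, adjusted p = 0.0699). The rise was another claudin, Cldn1 (1.47, adjusted p = 0.0302), which was lost without any 1 Arid2 KO library, Smarcb1 KO replicate 3 or wild-type replicate 1 (0.0518 to 0.0805).

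Of 27 matrix genes 2 rose and 3 fell (median -0.21), shares near the 6.95% and 9.32% over all genes. None of the 27 fell with the GC trend taken out, where 720 of all 17079 genes tested did. Col12a1, a collagen of the fibril surface, had 97.3, 70.6 and 89.7 CPM in Smarcb1 KO, 45.6, 53.6 and 44.7 CPM in Arid2 KO and 78.2, 90.6 and 68.9 CPM in wild type (0.84, SE 0.15, adjusted p = 0.0123). Mmp14, a membrane-bound matrix protease, had 46.7, 54 and 59.7 CPM, then 34.2, 34.4 and 30.3 CPM, then 47.2, 52.1 and 55.2 CPM (0.70, SE 0.12, adjusted p = 0.0102). For both, Arid2 KO was the low genotype and wild type overlapped Smarcb1 KO. Neither Col12a1 (0.0628) nor Mmp14 (0.0562) was called without Arid2 KO replicate 3. Col5a1 fell from 76.7, 90.1 and 94.9 CPM in Arid2 KO to 45.2, 51.6 and 53.5 CPM in Smarcb1 KO (-0.80, SE 0.13, adjusted p = 0.00805), and was not called with the GC trend taken out (-0.35, adjusted p = 0.112). Of 10 fibroblast markers 2 rose and none fell, with summed levels of 2201 to 2390.5 CPM in Smarcb1 KO against 2099 to 2304 CPM in Arid2 KO. Lum, a small matrix proteoglycan, was one of the 2 (1.31, adjusted p = 0.0114) and was lost without Arid2 KO replicate 3 (0.0557).

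Among signalling, clock and chromatin lists, the shares called can be read against 6.95% higher and 9.32% lower over all genes tested. Of 11 Hippo targets only Ctgf, a matricellular growth factor, was called. It had 189, 346 and 215 CPM in Smarcb1 KO, 63.9, 103 and 64.1 CPM in Arid2 KO and 156, 138 and 176 CPM in wild type (1.7, SE 0.26, adjusted p = 0.00795), and was called whichever library was omitted. Of 13 Wnt pathway genes 2 rose and 2 fell, and Dkk3, of the Dickkopf family, was called whichever library was omitted (0.85, SE 0.13, adjusted p = 0.00817). Neither Ctgf (1.73, adjusted p = 0.0601) nor Dkk3 (0.80, adjusted p = 0.0729) was called with the parathyroid covariate. Of 21 MAPK targets only the G1 cyclin Ccnd1 was called (-0.96, adjusted p = 0.0263), and not without any 1 of Arid2 KO replicates 2 and 3 and Smarcb1 KO replicates 1 and 3 (0.0713 to 0.102). Of 15 circadian genes 1 rose and 3 fell (median -0.57). Among them Dbp, a clock output factor, had 43.6, 47.6 and 63.7 CPM in Smarcb1 KO against 98.6, 151 and 134 CPM in Arid2 KO (-1.31, SE 0.20, adjusted p = 0.00739), was not called with the GC trend taken out (-0.57, adjusted p = 0.0997), and the hour of dissection is not given in the sources used here. Of 19 genes on the Polycomb list Rnf2 rose (0.62, adjusted p = 0.0294) and Kdm6b (-0.87, adjusted p = 0.0167), Ring1 (-0.51, adjusted p = 0.0397) and Phc2 (-0.53, adjusted p = 0.0496) fell. Kdm6b is no Polycomb protein but a demethylase of the histone mark that Polycomb complexes set. None of the 19 was called with the GC trend taken out, where Phc2 changed sign (0.077, adjusted p = 0.58). In that fit 1294 of all 17079 genes tested were called.

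**Figure D4:**
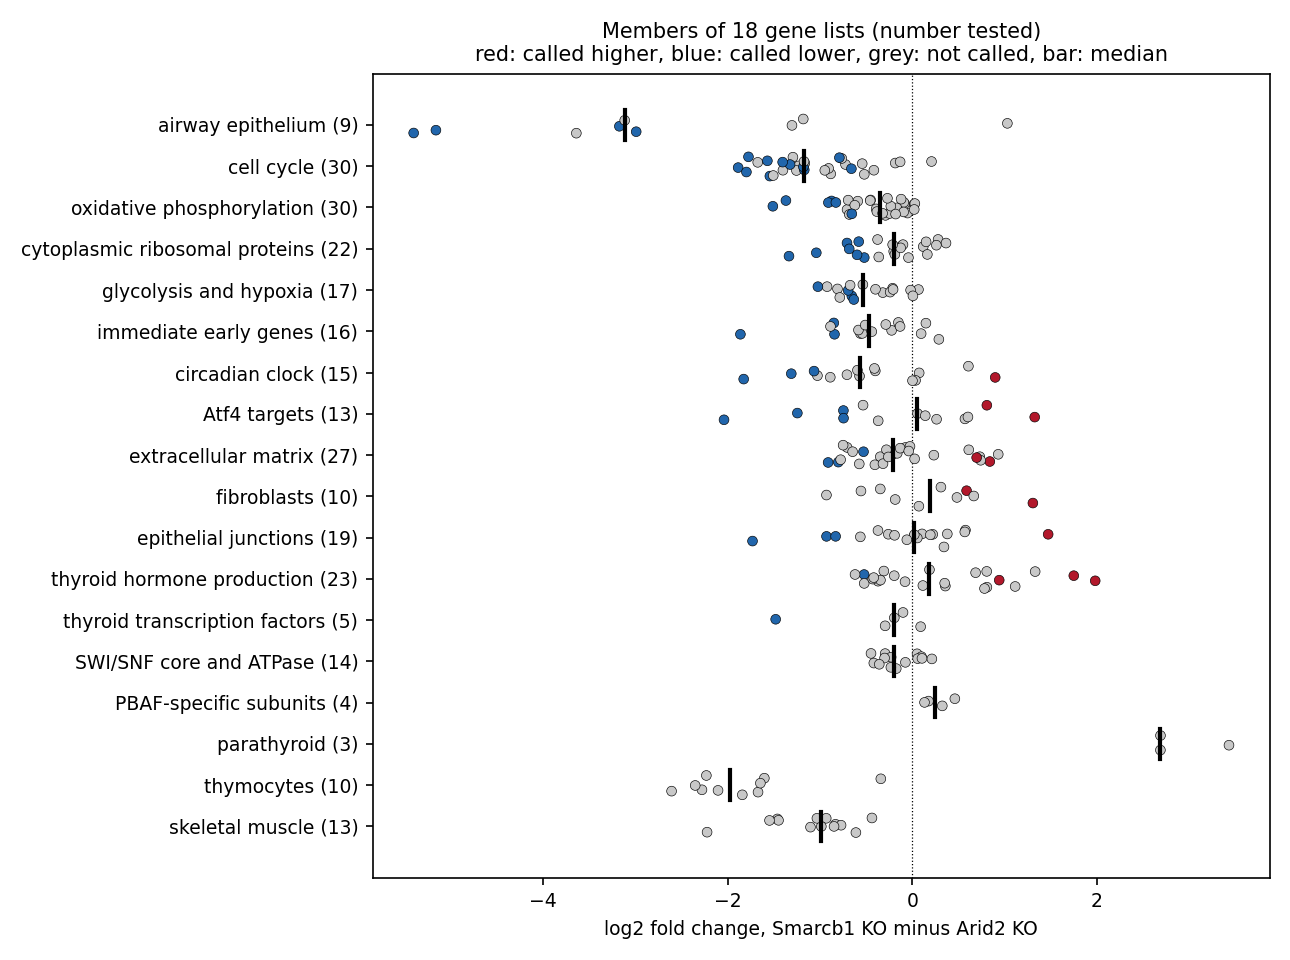
Log2 fold change (Smarcb1 KO minus Arid2 KO) of each tested member of the gene lists named at the left, 1 point per gene with vertical jitter; red points were called higher, blue lower and grey not called, and bars mark list medians. The airway and cell cycle lists lie mostly left of 0, with medians of -3.11 and -1.17, and the parathyroid markers lie right of 0 without a call.

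Reads cannot be assigned with certainty where annotated genes overlap. This touches Cadm3 with Darc and Aim2, Scand1 with Cnbd2, Muc15 with Ano3, Adora3 with Tmigd3, Lrrc18 with Wdfy4, Pcsk1n with Eras, Duoxa1 with Duox1, Uqcrq with Gdf9, Dbp with Sphk2, Cdc20 with Elovl1 and Tg with Sla.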

How the data were processed

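Per the labels' protocols, thyroids were flash frozen, RNA was extracted in TRIzol and libraries came from an Illumina TruSeq RNA kit. The authors deposited raw read counts per gene, as whole numbers. Build mm9 and the tools DESeq2, HTSeq 0.6.1 and STAR 2.4 appear in the submitters' processing notes, without a role or order. Whether counting used strand is not given in the sources used here. Reads have no molecular identifiers, so counting error is only a lower limit of the error.

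The table has 33924 genes (8005 at 0 throughout), and each column was matched to its sample by title. Knockout replicates were no copies of each other (chi-square over its degrees of freedom 64.4 to 122). All 9 libraries went into 1 edgeR 4.0.16 fit of 3 group means in R 4.3.3, with TMM, filterByExpr by group, the quasi-likelihood F test and 6 residual degrees of freedom. Genes were called at an adjusted p under 0.05 over all 17079 tested. The SE is the log2 fold change divided by the root of F. GC content is that of the longest GRCm38 transcript (97.4% of tested genes matched by symbol), and its trend per library, a spline with 5 degrees of freedom, was entered as an offset. The parathyroid covariate is the mean log2(CPM + 1) of 3 genes. Alternatives used DESeq2 1.42.0 and limma 3.58.1, and the fitting steps were tested on simulated data. There, 23 of 100 changes of 2-fold and 99 of 100 changes of 4-fold were recovered. A gene that was not called may therefore still differ.

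Members, alternatives and the 46 gene lists (620 of 624 entries found) were chosen with earlier results of these data known. Genes named are the targeted genes, the 12 rises and falls of largest size with no overlap and an average log2 CPM of at least 1, the 6 of each with at least 5, the thyroid genes, and in other lists at most 4 members of lowest adjusted p. Provisional gene names, 167 of the higher and 195 of the lower calls, were passed over. Some named genes are not reported here.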

Additional observations from a re-analysis of the deposited data

How the results depend on the processing

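Against 2779 calls (1187 higher, 1592 lower), the DESeq2 Wald test gave 4337 (2044 and 2293), the 6 knockout libraries alone 1348 (560 and 788), the parathyroid covariate 145 (35 and 110), the GC trend taken out 1294 (574 and 720), both 93 (31 and 62), an adjusted p of 0.01 324 (80 and 244) and a fold of at least 2 1027 (462 and 565). Without a filter on low counts 775 genes were higher. Leaving out 1 library gave 395 (without Arid2 KO replicate 3) to 4411 (without Smarcb1 KO replicate 2) calls, with 98 to 2191 higher and 297 to 2220 lower. The other settings tried (DESeq2 size factors, upper-quartile scaling, library totals, a CPM of at least 1 in 3 libraries, limma-voom, a robust spread, thinning, no lymphocyte-marked libraries) kept the total within 1.5 times. Upper-quartile scaling and library totals moved the share of lower calls from 57.3% to 48% and 47.7%. No paired analysis was possible because the labels give the genotypes no shared replicate numbers.

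Sign changes included the following, Jund and Phc2 being called genes; the causes were not tested. With the GC trend taken out: Arid2 -0.060, Nkx2-1 0.28, Tg 0.019, Phf10 -0.022, Brd7 -0.051, Phc2 0.077, Jund 0.41, and the medians of the PBAF (-0.037) and Atf4 (-0.10) lists. With the covariate: Arid2 -0.025, Pth -2.66, Gcm2 -1.44, and the parathyroid (-1.44), adipocyte (0.18) and cholesterol (0.0020) medians. Pth, Gcm2 and Casr make up the covariate, so their own values and list median in fits with it carry no information. With both: Arid2 -0.24, Nkx2-1 0.18, Pbrm1 -0.00093, Brd7 -0.040, Phc2 0.080, Jund 0.25, Pth -2.81, Gcm2 -1.46, and the PBAF (-0.020), parathyroid (-1.46), cartilage (0.055), adipocyte (0.21), matrix (0.070), cholesterol (0.11) medians. Without the lymphocyte-marked libraries: Hhex -0.092 and the C cell (-0.10) and Wnt (0.27) medians. With 1 library left out, ranges that cross 0 included log2 fold change of Nkx2-1 -0.31 to 0.011, log2 fold change of Tg -0.20 to 0.056, log2 fold change of Hhex -0.0058 to 0.19, log2 fold change of Glis3 -0.38 to 0.050, B cell median -0.17 to 0.36, Atf4 median -0.0019 to 0.18, Wnt median -0.26 to 0.41. Of 105 called genes followed, 79 held with the GC trend taken out, 27 with the covariate and 42 without Arid2 KO replicate 3.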
